A study of Mus musculus with 8 samples.

Results

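The transcripts of 9 genes of the gp130 cytokine system were followed in mouse ovarian tumours: the ligands Il6, Il11, Lif and Osm, and the receptor chains Il6ra, Il6st, Osmr, Lifr and Il11ra1. They were taken by gene name from the probes that are not controls, where 11 probes carry these names; the array named 27240 genes in all. Each tumour came from a different female mouse of the line C57BL/6JTgMISIIR-TAg, in which the promoter of Amhr2, the gene for the receptor of Müllerian inhibiting substance, drives SV40 T antigen. All 8 mice carried the transgene and a tumour of about 500 mm3; 4 were given vehicle (0.5% hypermellose with 0.1% Tween 80) and 4 were dosed in that vehicle with 30 mg/kg of AZD1480, which inhibits JAK1 and JAK2. Tumour tissue was taken 6 h later, and the total RNA of the 8 tumours was measured on 8 one-colour arrays. No mouse without the transgene, no normal ovary and no other dose or time was analysed here, and a transcript difference 6 h after a dose does not measure receptor protein.

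Cytokines of this family signal through a shared receptor chain, gp130, which Il6st encodes. Interleukin 6 and interleukin 11 first bind their own receptors, Il6ra and Il11ra1, which then bring gp130 chains together, whereas leukaemia inhibitory factor pairs gp130 with Lifr and mouse oncostatin M pairs it with Osmr. The paired chains activate the JAK kinases bound to them, which phosphorylate STAT3, and STAT3 induces Socs3, an inhibitor that closes the loop. In ovarian carcinoma the interleukin 6 and STAT3 axis is known for its link to tumour growth and inflammation. The comparison of the 2 groups asks how the transcripts of this system stand shortly after its kinases are inhibited.

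Levels are given as the log2 of the processed intensity minus the 75th percentile of that array, so that 0 is the level of that percentile, and levels of different probes were not compared with each other. Each slide held replicates 1 and 2 of both groups or replicates 3 and 4 of both. Between 66.9% and 76.4% of the spots of an array were well above background. The array of AZD1480 replicate 1 stood apart from the other 3 of its group, by a root mean square difference of 1.62 log2 units from their mean, against 0.59 to 1.01 for the other 7 arrays. It was the highest of the 8 arrays for 28.5% of the tested genes and the lowest for 23.8%. For most members, and for some of the other genes and lists, differences are given with and without it. The nearest profiles and the median differences of the marker lists are given over all 8 arrays only. By limma with Benjamini-Hochberg adjustment, 0 of 19778 genes (0%) passed an adjusted p under 0.05, the smallest adjusted p being 0.647. At an unadjusted p under 0.05 there were 685 genes (3.46%), of which 345 (1.74%) were lower and 340 (1.72%) higher in AZD1480. The 4 arrays per group limit the precision.

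The receptors were detected in every tumour and most ligands were at or near background. In the vehicle tumours all 5 receptors were well above background on 4 of 4 arrays. Of the 4 ligands, Il11 was well above background on 4 vehicle arrays, Osm on 3, and Il6 and Lif on 1 each. The filter of 4 detected arrays among the 8 left Il11, Osm and the 5 receptors, so 7 of the 9 genes were tested. None passed the adjusted threshold, and 1 of the 7, Osmr, was below an unadjusted p of 0.05. Osmr was also the single tested gene of the 7 whose groups did not overlap, a separation in the lower direction that 278 of all tested genes (1.41%) showed. Of the 7 genes, 3 were lower and 4 higher in AZD1480, beside 43.5% of all genes lower, with a median difference of 0.056, beside 0.045 over all genes.

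**Figure D1:**
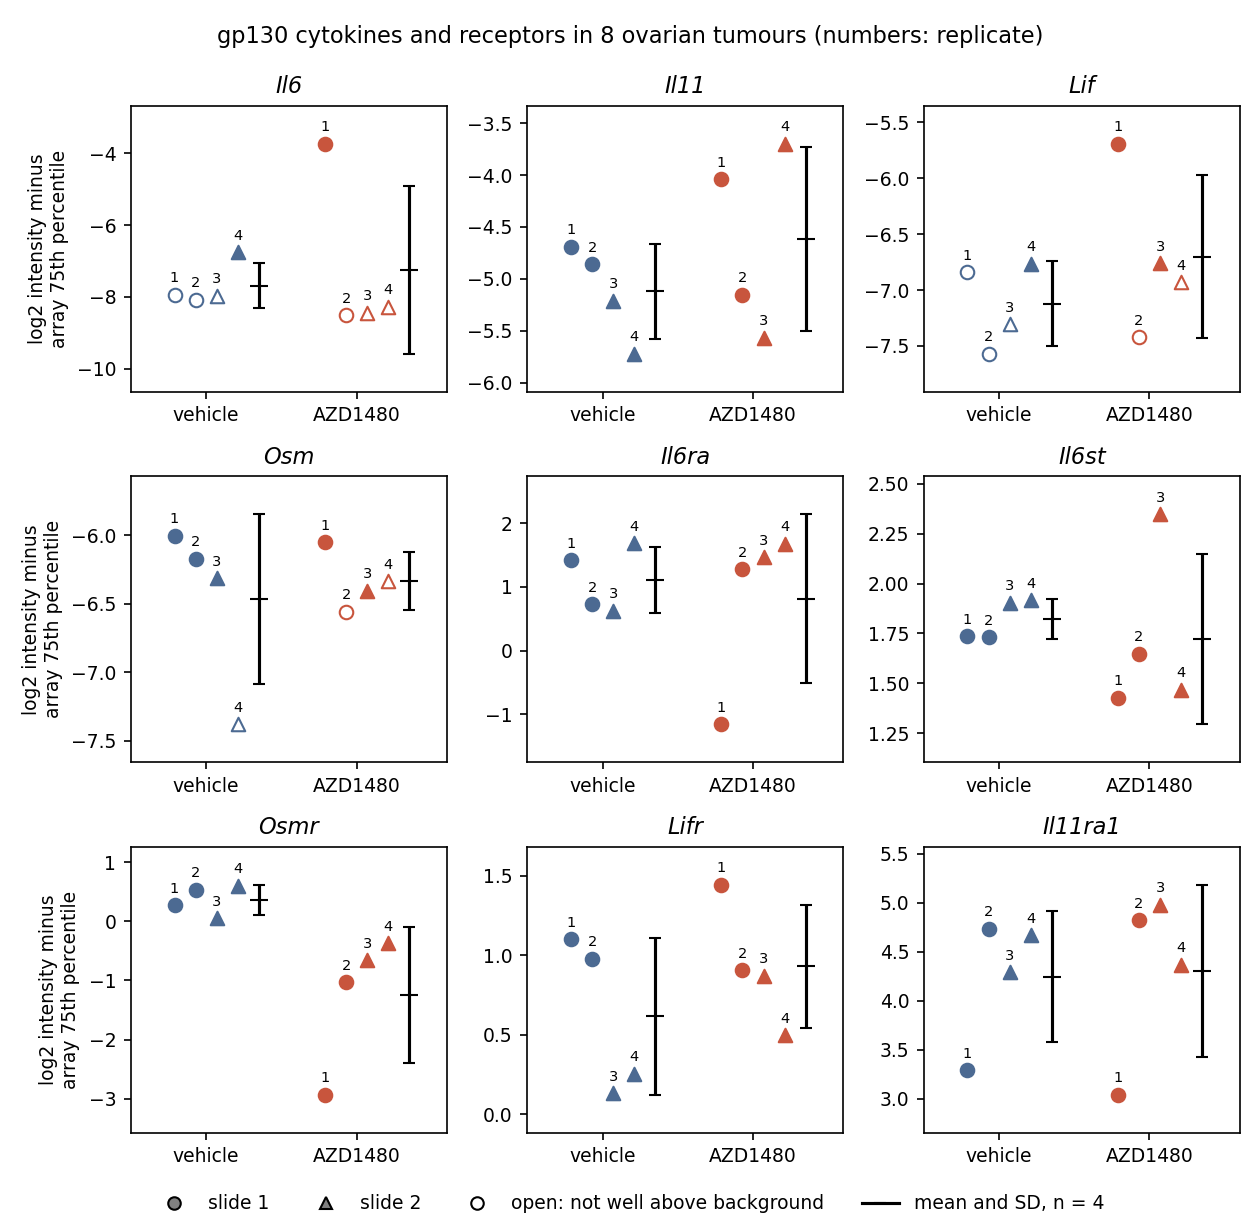
The log2 intensity minus the 75th percentile of the array (vertical axis) is plotted for each of the 9 genes on the 4 vehicle and 4 AZD1480 arrays, with circles for slide 1, triangles for slide 2, open symbols for values not well above background, and bars for the mean and SD (n = 4). Osmr shows no overlap between the groups, and AZD1480 replicate 1 is the highest array for Il6, Lif and Lifr and the lowest for Il6ra, Il6st, Osmr and Il11ra1.

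Il6 encodes interleukin 6, the ligand that gives the family its name. Its probe lies on chromosome 5 at chr5:30346367-30346426, plus strand, on the mm9 build. Only 2 arrays gave a signal well above background, vehicle replicate 4 at -6.76 and AZD1480 replicate 1 at -3.73. The other vehicle arrays gave -7.94, -8.08 and -7.96, and the other AZD1480 arrays gave -8.51, -8.44 and -8.28, all not well above background, the first of these being the software's surrogate for a value below background. AZD1480 replicate 1 therefore stood alone, with a processed intensity of 354 where the other 7 arrays gave 5.11 to 23.6. A reference was taken as the lowest signal well above background on each array, or the probe's own signal where that was higher, averaged over the arrays compared with. Il6 on this array was 7.77-fold above the reference of the other 3 AZD1480 arrays and 10.3-fold above that of the 4 vehicle arrays. Il6 was not tested, because it did not pass the detection filter. In a fit without that filter its AZD1480 minus vehicle difference was 0.44 ± 1.07 (SE, 4 arrays per group), and -0.73 ± 0.35 without AZD1480 replicate 1.

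Lif, which encodes leukaemia inhibitory factor, was dim in the same way. Its probe lies at chr11:4172032-4172091 (mm9, plus strand). The vehicle levels were -6.84, -7.57, -7.31 and -6.77 for replicates 1 to 4, of which the last was well above background. The AZD1480 levels were -5.69, -7.42, -6.76 and -6.93, of which those of replicates 1 and 3 were well above background. AZD1480 replicate 1 was again the highest array, 2.65-fold above the same kind of reference for the 4 vehicle arrays. Vehicle replicates 1 and 3 lay just above the lowest signal well above background on their arrays without being so flagged. The reference is therefore not a strict detection limit. The other AZD1480 levels, -7.42 to -6.76, lay beside vehicle levels of -7.57 to -6.77. The difference in the fit without the filter was 0.42 ± 0.39 (SE) and 0.084 without AZD1480 replicate 1, and was not tested.

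Il11 encodes interleukin 11 and was the one ligand well above background on all 8 arrays (probe at chr7:4724847-4724906, mm9, minus strand). The vehicle tumours gave -4.69, -4.86, -5.21 and -5.72, with a mean of -5.12 ± 0.46 (SD, n = 4). The AZD1480 tumours gave -4.04, -5.15, -5.57 and -3.70, with a mean of -4.61 ± 0.89 (SD, n = 4). AZD1480 replicates 1 and 4 were above every vehicle tumour and replicates 2 and 3 lay among them, so the groups overlapped. The difference of 0.51 ± 0.45 (SE; 95% interval -0.54 to 1.55) did not pass in limma, with an adjusted p of 0.974. Slide 1 alone gave 0.18 ± 0.48 and slide 2 alone 0.83 ± 0.75, and leaving out AZD1480 replicate 1 gave 0.32 ± 0.47.

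Osm encodes oncostatin M, a ligand made mainly by leukocytes (probe at chr11:4140146-4140205, mm9, plus strand). It was well above background on 3 vehicle and 2 AZD1480 arrays. The vehicle levels were -6.01, -6.17, -6.31 and -7.38, the last not well above background. The AZD1480 levels were -6.05, -6.56, -6.41 and -6.34, of which replicates 2 and 4 were not well above background. All AZD1480 levels lay within the vehicle range. The difference was 0.13 ± 0.31 (SE; 95% interval -0.59 to 0.85), with an adjusted p of 0.984 in limma, and its sign differed between slide 1 (-0.22 ± 0.31) and slide 2 (0.48 ± 0.43). It was -0.17 without vehicle replicate 4, the array on which the probe was dimmest.

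The stretches before the start sites of Il6, Lif and Il11 are shown, the ligand genes for which a sequence was at hand. These genes had their highest or next highest level on one array, AZD1480 replicate 1. Osm was also next highest there but had no sequence entry, and Lifr was also highest there. The sequences are RefSeq's, on GRCm38.p6, as the 250 bases upstream of an annotated start on the gene's strand; 8 of the 9 genes had an entry, with 11 windows in all. Capitals mark matches, on either strand, to 4 searched motifs: STAT (TTCNNNGAA), NF-kB (GGANTTTCC), C/EBP (TTGNGCAA) and AP-1 (TGANTCA). The motifs were chosen with the Il6 sequence in view. The Il6 window is chr5:30012864-30013113 (plus strand), the Lif window chr11:4257318-4257567 (plus strand), and the Il11 window chr7:4778142-4778391 (minus strand), which belongs to the gene's downstream start.
Il6: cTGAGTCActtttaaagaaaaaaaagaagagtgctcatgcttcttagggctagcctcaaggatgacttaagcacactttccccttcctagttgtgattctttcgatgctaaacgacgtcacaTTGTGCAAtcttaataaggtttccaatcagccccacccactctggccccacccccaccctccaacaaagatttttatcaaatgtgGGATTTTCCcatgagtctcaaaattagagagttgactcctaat
Lif: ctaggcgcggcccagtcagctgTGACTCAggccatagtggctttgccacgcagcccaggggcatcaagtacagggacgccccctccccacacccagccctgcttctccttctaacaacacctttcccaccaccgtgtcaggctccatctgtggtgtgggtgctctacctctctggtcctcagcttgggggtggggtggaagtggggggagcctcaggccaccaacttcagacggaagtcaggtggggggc
Il11: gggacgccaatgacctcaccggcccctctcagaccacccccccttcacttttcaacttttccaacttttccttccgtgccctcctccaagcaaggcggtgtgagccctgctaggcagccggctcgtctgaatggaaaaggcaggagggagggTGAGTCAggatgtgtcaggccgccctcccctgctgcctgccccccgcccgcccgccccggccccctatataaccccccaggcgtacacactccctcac
The Il6 window held an NF-kB match 43 to 35 bases before the start, a C/EBP match at 128 to 121 bases and an AP-1 match at 249 to 243 bases. The Lif window held an AP-1 match 228 to 222 bases before the start, and this Il11 window held one at 98 to 92 bases. The other Il11 window (chr7:4782858-4783107, minus strand) and the windows of the 5 receptors held no match to any of the 4 motifs. Over all 32851 RefSeq windows of this length, 1.07% held the NF-kB letters, 2.61% the C/EBP letters, 6.75% the AP-1 letters and 7.02% the STAT letters. None of the 11 windows held the STAT letters, which says only that these letters were not in these windows.

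Osmr, the chain that pairs with gp130 to bind oncostatin M, had the lowest AZD1480 values of the receptors relative to vehicle. Its probe lies at chr15:6763686-6763745 (mm9, minus strand) and was well above background on all 8 arrays. The vehicle levels were 0.27, 0.53, 0.05 and 0.60 for replicates 1 to 4, with a mean of 0.36 ± 0.25 (SD, n = 4). The AZD1480 levels were -2.93, -1.03, -0.66 and -0.37, with a mean of -1.25 ± 1.15 (SD, n = 4). All 4 AZD1480 tumours were below all 4 vehicle tumours, and AZD1480 replicate 1 was the lowest by a wide margin. The difference of -1.61 ± 0.53 (SE; 95% interval -2.84 to -0.38) corresponds to a 3.06-fold lower level (interval 1.30-fold to 7.17-fold). By limma the unadjusted p was 0.0166 and the adjusted p 0.974, so it did not pass; Osmr ranked 212 of 19778 genes by p. In bulk tissue, fewer cells of a type and less RNA per cell cannot be told apart.

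Without AZD1480 replicate 1 the Osmr difference was -1.05 ± 0.22 (SE; 95% interval -1.57 to -0.53), with an unadjusted p of 0.00200 and an adjusted p of 0.691 by limma, and the rank was 57. In that fit 859 genes (4.34%) were below an unadjusted p of 0.05, 423 of them (2.14%) lower in AZD1480. The difference was -2.38 ± 0.75 within slide 1, which holds AZD1480 replicate 1, and -0.84 ± 0.28 within slide 2. It was -1.56 in the values of the authors' deposited table. The sign was thus the same on both slides, while the size differed between them. The upstream window of Osmr, chr15:6874314-6874563 (GRCm38.p6, minus strand), is shown as that of the member that separated the groups. It held no match to any of the 4 motifs, and so carries no capitals.
Osmr: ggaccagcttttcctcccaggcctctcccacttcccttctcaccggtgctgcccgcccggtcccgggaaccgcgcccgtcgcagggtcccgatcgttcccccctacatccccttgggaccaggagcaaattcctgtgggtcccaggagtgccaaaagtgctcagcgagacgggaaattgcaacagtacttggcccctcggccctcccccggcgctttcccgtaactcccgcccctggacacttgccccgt

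**Figure D2:**
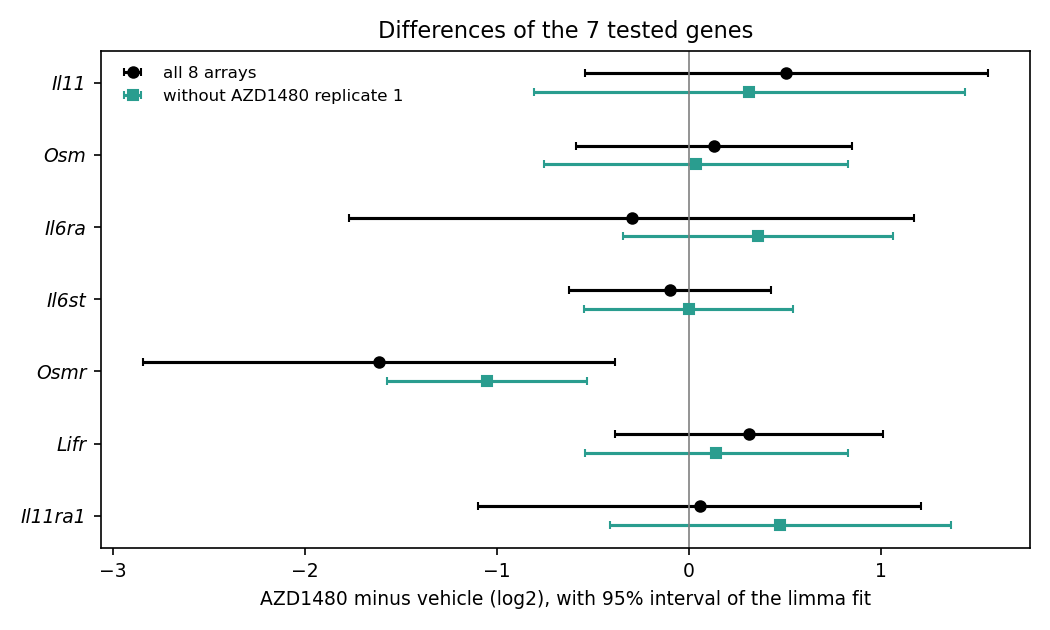
The AZD1480 minus vehicle difference in log2 (horizontal axis) of each of the 7 tested genes is plotted with its 95% interval from limma, over all 8 arrays (black) and without AZD1480 replicate 1 (green). The Osmr interval lies below 0 in both fits, at -2.84 to -0.38 and -1.57 to -0.53, and the other 6 intervals include 0.

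The genes whose profile over the 8 arrays was most like that of Osmr were Isg15 and Mx2. Likeness was measured as the root mean square difference between log2 values, each gene being centred on its own mean over the 8 arrays. It was 0.24 for Isg15, a ubiquitin-like protein induced by interferon, and 0.26 for Mx2, an interferon-induced GTPase, with a median of 1.18 over 19777 genes. Isg15 had levels of 3.48, 3.76, 3.66 and 4.04 in the vehicle tumours and -0.024, 2.04, 2.41 and 2.47 in the AZD1480 tumours. Mx2 had levels of -1.61, -1.47, -2.06 and -1.61 in vehicle and -5.60, -3.37, -3.26 and -2.47 in AZD1480. Both were, like Osmr, lower in all 4 AZD1480 tumours than in any vehicle tumour, and both were lowest on AZD1480 replicate 1. These genes were picked for their likeness, so the match is a description and carries no test.

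**Figure D3:**
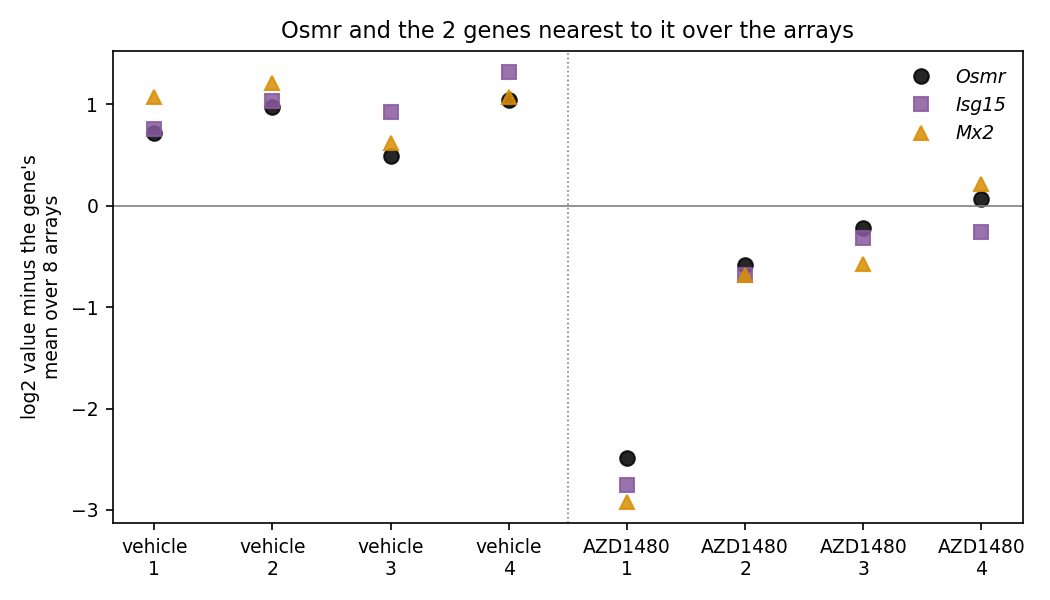
The log2 value minus the gene's mean over the 8 arrays (vertical axis) is plotted on each array for Osmr, Isg15 and Mx2. All 3 genes lie above 0 in the 4 vehicle tumours and reach their lowest point on AZD1480 replicate 1.

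Il6st encodes gp130 itself, the chain that every ligand here needs, and it varied least of the 6 genes well above background on all 8 arrays. Its probe (chr13:113296586-113296645, mm9, plus strand) gave 1.74, 1.73, 1.90 and 1.92 in the vehicle tumours, a mean of 1.82 ± 0.10 (SD, n = 4). The AZD1480 tumours gave 1.43, 1.65, 2.35 and 1.47, a mean of 1.72 ± 0.43 (SD, n = 4). AZD1480 replicates 1, 2 and 4 were below all vehicle tumours and replicate 3 was above them. The difference of -0.10 ± 0.23 (SE; 95% interval -0.63 to 0.43) had an adjusted p of 0.984 by limma and was -0.0012 without AZD1480 replicate 1 and -0.31 ± 0.16 without AZD1480 replicate 3. The range over the 8 arrays was 0.92 log2 units, smaller than the median of 1.23 over all tested genes.

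Il6ra, which encodes the chain that binds interleukin 6, turned on 1 array. Its probe (chr3:89674054-89674113, mm9, minus strand) gave 1.42, 0.73, 0.63 and 1.69 in vehicle, a mean of 1.12 ± 0.52 (SD, n = 4). The AZD1480 levels were -1.16, 1.28, 1.47 and 1.68, a mean of 0.82 ± 1.33 (SD, n = 4). Replicate 1 was below every other tumour, and the other AZD1480 tumours lay within the vehicle range. The difference was -0.30 ± 0.63 (SE; 95% interval -1.77 to 1.17; adjusted p 0.983 by limma) over all arrays and 0.36 ± 0.30 without AZD1480 replicate 1. It was -1.01 ± 0.96 within slide 1 and 0.42 ± 0.44 within slide 2.

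Il11ra1 encodes the chain that binds interleukin 11 (probe at chr4:41716285-41716344, mm9, plus strand). The mouse genome holds a near-identical copy, Il11ra2, which has no probe of its own name here, so which copy gave the signal is uncertain. The vehicle levels were 3.29, 4.74, 4.29 and 4.67, a mean of 4.25 ± 0.66 (SD, n = 4). The AZD1480 levels were 3.04, 4.82, 4.98 and 4.37, a mean of 4.30 ± 0.88 (SD, n = 4). Replicate 1 was the lowest tumour of each group, and the groups overlapped throughout. The difference was 0.056 ± 0.50 (SE; 95% interval -1.10 to 1.21; adjusted p 0.995 by limma), with 0.48 ± 0.38 without AZD1480 replicate 1.

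Lifr, which pairs with gp130 to bind leukaemia inhibitory factor, was measured by 3 probes, all well above background on all 8 arrays. The brightest (chr15:7147319-7147378, mm9, plus strand) gave 1.10, 0.98, 0.13 and 0.25 in vehicle, a mean of 0.62 ± 0.49 (SD, n = 4). The AZD1480 levels of that probe were 1.44, 0.90, 0.87 and 0.50, a mean of 0.93 ± 0.39 (SD, n = 4). The vehicle tumours of slide 1 were 0.85 higher than those of slide 2, more than the difference between the groups. That difference was 0.31 ± 0.30 (SE; 95% interval -0.38 to 1.01; adjusted p 0.974 by limma), with 0.13 ± 0.31 within slide 1 and 0.49 ± 0.21 within slide 2. Leaving out AZD1480 replicate 1 gave 0.14 ± 0.29 (SE).

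The other Lifr probes gave differences of the same sign and of unequal size. The probe at chr15:7141150-7141209, which like the brightest is assigned to the transcript NM_013584, had levels of -3.22, -3.16, -3.43 and -3.42 in vehicle and -1.85, -3.38, -1.98 and -2.97 in AZD1480. Its AZD1480 replicates 1, 3 and 4 were above all vehicle tumours and replicate 2 was among them, with a difference of 0.76 ± 0.36 (SE). The probe at chr15:7135072-7135131, assigned to NM_001113386, had -2.30, -2.24, -3.11 and -2.89 in vehicle and -1.73, -2.81, -2.44 and -2.73 in AZD1480, a difference of 0.21 ± 0.32 (SE). All 3 probes were highest on AZD1480 replicate 1 and lowest on vehicle replicate 3. No annotation on the mm9 build was used here, so the exons that the probes of the 9 genes lie in are not stated.

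**Figure D4:**
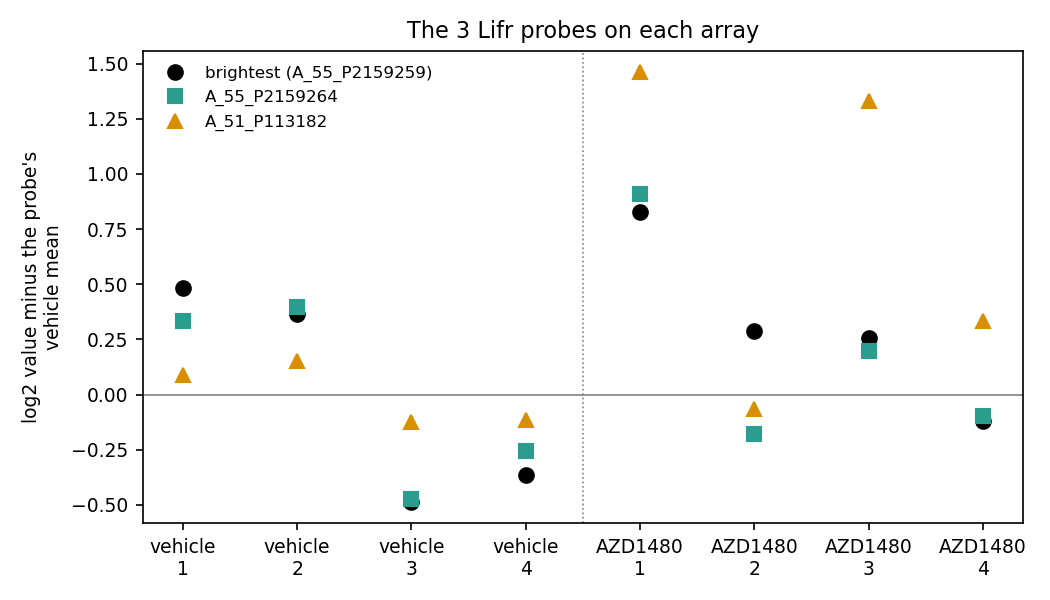
The log2 value of each of the 3 Lifr probes minus that probe's vehicle mean (vertical axis) is plotted on each of the 8 arrays. The probes are all higher in the vehicle tumours of slide 1 (replicates 1 and 2) than in those of slide 2 and are highest on AZD1480 replicate 1, and the probe A_51_P113182 also stands apart on AZD1480 replicate 3.

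The spread over the 8 arrays differed widely among the 6 genes well above background on every array. The range was 3.53 log2 units for Osmr, 2.84 for Il6ra, 2.02 for Il11, 1.94 for Il11ra1 and 1.31 for the brightest Lifr probe, beside 0.92 for Il6st. Of the tested genes, 87.8% had a smaller range than Osmr and 36.0% a smaller one than Il6st. The SD was larger among the AZD1480 tumours for 5 of the 7 tested members, beside 72.2% of all genes. AZD1480 replicate 1 was the highest or lowest array for 7 of the 9 members, and the lowest for 4 of the 5 receptors. Of all tested genes, 28.5% were highest and 23.8% lowest on that array.

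The nearest profiles of the other members with signal on all 8 arrays were found by the same measure and are descriptions. Il6st was nearest to Timp2, a metalloprotease inhibitor (0.098), and to Ifngr1, a chain of the interferon gamma receptor (0.12), with a median of 0.50 over all genes. Il6ra was nearest to the creatine kinase gene Ckb (0.19) and the calmodulin-dependent kinase gene Camk2b (0.19). Il11ra1 was nearest to Bves (0.19) and to Fbln5, an elastic fibre protein (0.20). Lifr was nearest to Clcn6 and Clcc1 (both 0.14), and Il11 to Gm2987 (0.13) and 1700007E05Rik (0.14). The treatment differences of these genes ran from -0.40 for Ckb to 0.51 for Gm2987. Being picked for likeness to a member constrains a gene's difference too, so these values carry no test.

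Other ligands and receptors listed with the family did not separate the groups. Of 12 listed genes 10 were tested, Il31 being well above background on no array and Il11ra2 having no probe. Of these 10, 7 were lower and 3 higher in AZD1480, beside 43.5% of all genes lower. At an unadjusted p under 0.05 stood 0 of them, beside 3.46% of all genes. The median difference of the 10 genes was -0.26, or 0.10 without AZD1480 replicate 1. Those with the smallest p were the cardiotrophin gene Ctf1 at -0.29 ± 0.18 (SE), the interleukin 31 receptor Il31ra, a partner of Osmr, at 0.86 ± 0.61, Ebi3 at -0.51 ± 0.38 and its partner Il27 at 0.20 ± 0.19. Without AZD1480 replicate 1 they differed by -0.15 ± 0.13 for Ctf1, 1.04 ± 0.66 for Il31ra, -0.11 ± 0.16 for Ebi3 and 0.11 ± 0.19 for Il27. Il31ra was near background, with a vehicle mean of -6.63, and was well above background on 3 vehicle arrays.

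The signalling and shedding genes, 15 of 15 tested, were divided into 6 lower and 9 higher, with a median of 0.058. At an unadjusted p under 0.05 stood 2 genes, Stat3 and Socs3, both lower, beside 1.74% of all genes lower and 1.72% higher. Socs3 is also counted in the list of induced genes below. Without AZD1480 replicate 1 the signalling and shedding list gave 8 lower and 7 higher with a median of -0.0099. At an unadjusted p under 0.05 it then gave 3 lower and 1 higher, beside 2.14% of all genes lower and 4.34% in either direction. Stat3 encodes the main transcription factor of the pathway and had levels of 2.90, 2.17, 2.59 and 3.02 in vehicle and 1.46, 1.43, 2.20 and 1.98 in AZD1480. The groups overlapped by vehicle replicate 2 alone, which lay just below AZD1480 replicate 3. The Stat3 difference was -0.90 ± 0.26 (SE; adjusted p 0.974 by limma). Socs3 gave 1.65, 0.80, 0.93 and 1.38 in vehicle and 0.12, 0.50, 0.75 and 0.03 in AZD1480, without overlap, with a difference of -0.84 ± 0.26 (adjusted p 0.974). Pias3, an inhibitor of STAT3, differed by 0.40 ± 0.22, and by 0.58 ± 0.15 without AZD1480 replicate 1, the single gene of the list higher at an unadjusted p under 0.05 in that fit (0.00668, adjusted p 0.969 by limma). The drug's target kinases differed by 0.055 ± 0.32 for Jak1 and -0.58 ± 0.37 for Jak2. Without AZD1480 replicate 1, where Jak2 stood at 1.24 against 2.41 to 2.84 in the other AZD1480 tumours, they differed by -0.23 ± 0.22 for Jak1 and -0.22 ± 0.20 for Jak2. The shedding proteases Adam10 and Adam17, which cut receptors such as Il6ra from the cell surface, differed by -0.0079 and 0.073, and by -0.29 and -0.0099 without that array.

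Genes known to be induced through gp130 and STAT3 were lower more often than higher in AZD1480. Of 20 listed, 19 were tested (Fgg was well above background on no array), 15 were lower and 4 higher, beside 43.5% of all genes lower by any amount, and the median was -0.69, beside 0.045 for all genes. At an unadjusted p under 0.05 were 6 lower and 0 higher, beside 1.74% of all genes lower, and none passed the adjusted threshold. Without AZD1480 replicate 1 the counts were 13 lower, 6 higher and 8 lower at an unadjusted p under 0.05, among them all 6 of the first count, beside 2.14% of all genes. The 4 higher genes over all arrays were Vegfa (1.17 ± 0.59), Tnfrsf12a (0.69 ± 0.48), Pim1 (0.67 ± 0.40) and Il4ra (0.23 ± 0.66). In the same order they differed by 0.59 ± 0.35, 0.19 ± 0.22, 0.48 ± 0.41 and 0.84 ± 0.45 without AZD1480 replicate 1. The list was drawn up with earlier results of these data known, so its direction is not independent evidence.

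Cebpd, an acute phase transcription factor, gave 3.57, 3.50, 3.92 and 4.01 in vehicle and 2.60, 2.03, 2.91 and 2.09 in AZD1480. No AZD1480 tumour reached the lowest vehicle tumour, and the difference was -1.34 ± 0.25 (SE; adjusted p 0.827 by limma). Lcn2, an iron-binding acute phase protein, differed by -2.16 ± 0.59 without overlap between the groups. Lrg1, a secreted glycoprotein of the acute phase, differed by -1.47 ± 0.43 with overlap. The other genes at an unadjusted p under 0.05 were Socs3, Steap4 (-1.98 ± 0.65) and the ceruloplasmin gene Cp (-0.69 ± 0.23). Without AZD1480 replicate 1 the differences were -1.41 ± 0.265 for Cebpd, -1.76 ± 0.53 for Lcn2 and -1.44 ± 0.48 for Lrg1. In that fit Socs3 differed by -0.77 ± 0.27, Steap4 by -1.40 ± 0.46 and Cp by -0.60 ± 0.24. The mean level of the 19 genes was -0.48 to 0.24 in the vehicle tumours and -1.45 to -0.28 in the AZD1480 tumours, where AZD1480 replicate 1 was the lowest.

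**Figure D5:**
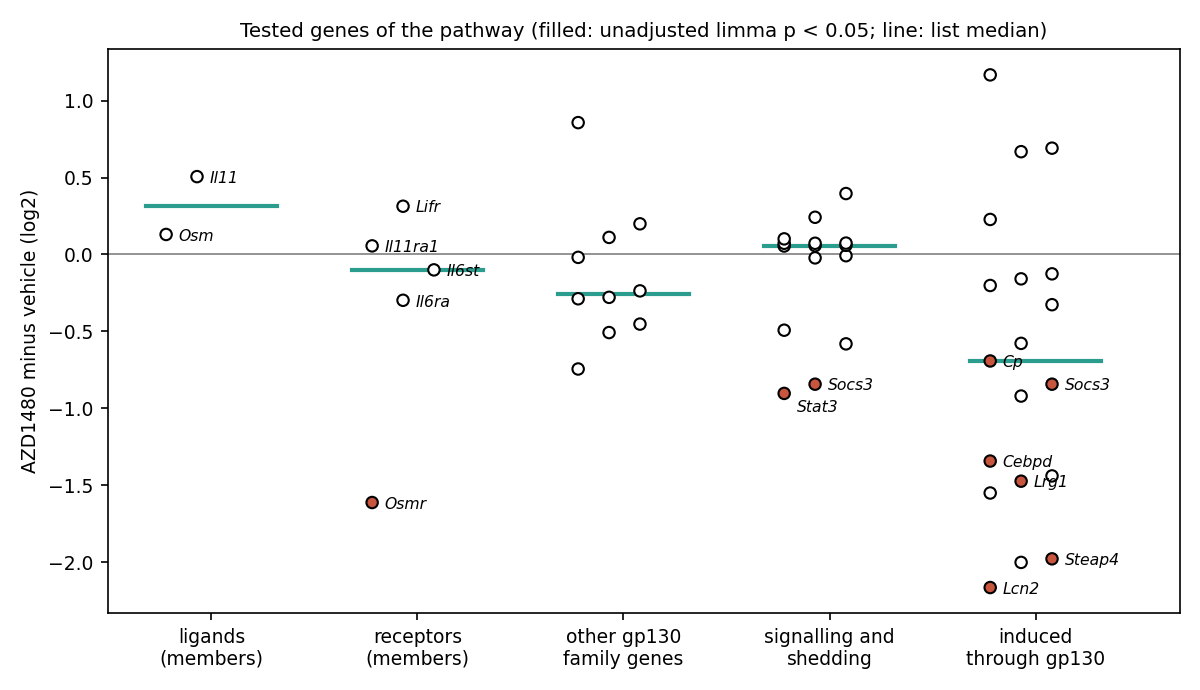
Each point is the AZD1480 minus vehicle difference in log2 (vertical axis) of 1 tested gene, grouped by the 2 member groups and 3 pathway lists, filled where the unadjusted limma p was under 0.05, with a line at each list's median. Osmr lies apart from the other receptors, and the filled points among the induced genes all lie below 0, at -2.16 to -0.69.

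Several lists of cell markers, though not all, had their lowest or highest mean on AZD1480 replicate 1. All 12 listed epithelial tumour markers, among them Krt8, Krt18, Epcam and Amhr2, were well above background on all 4 vehicle arrays. Their mean ran from 0.02 to 2.58 in vehicle and, within that range, from 0.06 to 0.92 in AZD1480, with 0.60 on replicate 1. Of these markers 12 of 12 were lower in AZD1480, beside 43.5% of all genes, with a median difference of -0.47. Of 13 macrophage and monocyte markers 11 were tested, with list means of -0.20 to 0.05 in vehicle; AZD1480 gave -1.84 on replicate 1 and -0.46, -0.07 and -0.22 on the others. Of these 11 markers 10 were lower in AZD1480, with a median difference of -0.53, and Cd163 did not pass the detection filter. All tested genes were also lower in the ciliated (9 of 9), adipocyte (5 of 5) and granulosa and luteal (5 of 5) lists. The fibroblast list had 8 of 11 lower and the endothelial list 5 of 9. The T and B cell list had 4 of 8 lower and the neutrophil list 1 of 5. The 11 fibroblast markers gave 0.14 to 0.76 in vehicle, -0.86 on AZD1480 replicate 1 and 0.05 to 1.10 on the others. The 9 markers of ciliated cells gave 2.11 to 2.74 in vehicle, -4.18 on AZD1480 replicate 1 and 2.22 to 2.26 on the others. The 5 tested of 9 neutrophil markers gave -2.51 to -1.21 in vehicle, -0.55 on AZD1480 replicate 1 and -2.69 to -1.78 on the others, while Ly6g, Mpo and Ngp were detected on 3 arrays or fewer.

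The array on which Osmr, Il6ra, Il6st and Il11ra1 were lowest and Il6, Lif and Lifr highest was AZD1480 replicate 1. That array was also the lowest in the macrophage, fibroblast, ciliated and lymphocyte lists and the highest in the neutrophil list. It was the highest in the granulosa and luteal list too, at 0.94 beside 0.93 on vehicle replicate 3. The part of these cell types in the values of that array was not tested. The T and B cell list was at -3.67 to -3.34 in vehicle, at -4.64 on AZD1480 replicate 1 and at -3.62 to -3.24 on the others. The endothelial list was at -2.22 to -1.59 in vehicle and -2.56 to -1.98 in AZD1480, where replicate 1 stood at -2.07, neither the highest nor the lowest array. The adipocyte list (-6.02 to 0.37 in vehicle, -6.44 to -5.21 in AZD1480) and the granulosa and luteal list (-4.15 to 0.93 in vehicle and up to 0.94 in AZD1480) each differed by several log2 units between single tumours of a group.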

How the data were processed

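Spots were quantified with Agilent Feature Extraction 9.5.3, per the submitters' processing notes. Its processed intensity has the background subtracted and spatial trends removed, with a small surrogate for values below background, per the file headers. The authors also deposited a log2 value table of the same arrays, quantile normalized to a median of 8.36 in every column, which served as an alternative.

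Log2 processed intensities were scaled by each array's 75th percentile (4706 to 5795 on slide 1, 1587 to 2783 on slide 2). Outlier-flagged spots were left out and spots of a probe averaged. Probes well above background on at least 4 of 8 arrays were kept, and the brightest stood for its gene. Stat3, Pias3, Adam17, Cp, Vegfa and Il4ra each had 2 kept probes, and values of the brighter alone are given. Symbols came from RefSeq accessions where matched (26055 of 39429 probes) and otherwise from the files. The file's gene names differed between slides for 6771 spots, but not for the 11 member probes. The test was a two-sided limma fit (version 3.58.1, R 4.3.3; lmFit, eBayes) with treatment as the only term and Benjamini-Hochberg adjustment over 19778 genes. The code was tested on simulated data. SEs and 95% intervals are limma's; SDs are over 4 mice per group. Replicates are separate mice per the labels. Replicate numbers were not taken as pairs.

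Named genes are the 9 members, up to 4 genes of each pathway list with the smallest p, Jak1, Jak2, Stat3 and Socs3, and the 2 nearest profiles of each member detected on all arrays; a gene that this rule names is not reported here. Adam10, Adam17, Steap4, Cp, Vegfa, Tnfrsf12a, Pim1 and Il4ra were named after their values were seen. The members and lists were chosen with earlier results of these data known. Alternatives were background correction, normalization, the detection filter, the probe rule, slide, array weights and leaving out each array. Probe positions are mm9, from the array files.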

Additional observations from a re-analysis of the deposited data

Results flagged for a closer look

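In 3 of the 18 groups of 4 arrays examined, 2 for each of the 9 genes, 1 array lay far from the other 3. Its gap to the nearest, divided by the whole range of the group, passed Dixon's 95% critical value. Chance gives about 1 such group in 20 where groups are independent and values normal. The AZD1480 groups share the same arrays, and most Il6 values were not well above background. The count of 3 therefore cannot be read against that rate. For Il6 in AZD1480 the ratio was 0.951, where replicate 1 stood at -3.73 and the others at -8.28 or below, not well above background. For Il6 in vehicle it was 0.894, where replicate 4 stood at -6.76 and the others at -7.94 or below, not well above background. For Il6ra in AZD1480 it was 0.857, where replicate 1 stood at -1.16 and the others at 1.28 to 1.68. AZD1480 replicate 1 is also the array that stood apart over all genes, with a root mean square difference of 1.62 log2 units.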

How the results depend on the processing

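No gene passed an adjusted p under 0.05 in limma in the main setting or in any of the 20 alternatives, and the count was 0 each time. The smallest adjusted p was 0.647 in the main setting, 0.0582 without AZD1480 replicate 1, 0.114 without AZD1480 replicate 3 and 0.126 with array weights; at an unadjusted p under 0.05 stood 345 genes lower and 340 higher in the main setting, the lower ones running from 233 without vehicle replicate 3 to 594 on slide 1 alone and the higher ones from 131 on slide 1 alone to 1081 without AZD1480 replicate 3. With the replicate number as a block the count was 0, with 461 genes lower and 419 higher at an unadjusted p under 0.05, and Osmr was at -1.61 ± 0.47 (adjusted p 0.838). Deviations of same-numbered arrays correlated at 0.36, 0.36, 0.13 and -0.059, and the highest correlation, 0.55, was between vehicle replicate 4 and AZD1480 replicate 3. The labels give no pairing either, so the numbers were not read as pairs. Osmr, Il6st, Il11 and Lifr kept their sign in the 20 settings, with Osmr from -2.38 to -0.84 and from -1.90 to -1.05 when each array was left out. When each array was left out, Osm ran from -0.17 to 0.28, Il6ra from -0.59 to 0.36 and Il11ra1 from -0.26 to 0.48. Osm turned to -0.22 on slide 1 alone and -0.17 without vehicle replicate 4. Il6ra turned to 0.42 on slide 2 alone, 0.14 with array weights and 0.36 without AZD1480 replicate 1. Il11ra1 turned to -0.082 on slide 1 alone, -0.26 without vehicle replicate 1, -0.12 without AZD1480 replicate 2 and -0.17 without AZD1480 replicate 3. Untested Il6 was 1.89 on slide 1 alone and -0.73 without AZD1480 replicate 1. The cause of these changes was not tested. Osm could not be tested under the filter on all 8 arrays, nor Il6 and Lif under that filter or with the mean of kept probes. For the genes induced through gp130, leaving out AZD1480 replicate 1 was chosen after seeing the data and gave 8 genes lower at an unadjusted p under 0.05 against 6. Signal near background limits Il6, Lif, Osm and Il31ra, and 4 arrays per group limit all.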
